A study of Mus musculus with 10 samples.

Results

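Blood and lymphatic endothelial genes were examined in RNA-seq data of mouse intestinal organoids. The set holds 10 genes, named by symbol from general knowledge of endothelium (Pecam1, Cdh5, Kdr, Flt1, Tek, Emcn, Plvap, Vwf, Lyve1 and Prox1), of 47069 genes in the table of counts. The rule is the symbol alone, though earlier results of these data were known when the genes were chosen. All 10 were found by symbol and all 10 passed the filter on low counts. The organoids came from C57BL/6 mice with Lgr5-EGFP-CreERT2 and Ppp2r1a flox/flox, in which tamoxifen lets Cre act in Lgr5+ crypt stem cells to delete the scaffold subunit of protein phosphatase 2A (PP2A), and they were grown in Matrigel with Noggin, EGF and R-spondin 1 (NER) for 50 days. There were 10 libraries in 5 groups of 2: control (saline), DMBA (a chemical carcinogen, labelled Long), tamoxifen labelled short or Long (TAM short and TAM long, both named Dosage-sensitive TAM in the labels), and DMBA with tamoxifen (DMBA+TAM). What short, Long and Dosage-sensitive mean is not stated in the sources used here. The library names do not spell the treatment: control is named NS, DMBA NL, TAM short DSS_S, TAM long DSS_L and DMBA+TAM Lgr5. Whatever S, L, N, DSS and Lgr5 stand for cannot be told apart from treatment in comparisons across them, and this holds for every comparison with DMBA+TAM. No label says that the 2 libraries of a group came from separate cultures or animals, so p-values measure the spread between these libraries, which may be technical.

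Blood vessels and lymphatic vessels are lined by endothelial cells, which adhere to each other through junction proteins and grow in response to vascular endothelial growth factors (VEGF) and angiopoietins through receptor tyrosine kinases. In the intestine, fenestrated capillaries carry absorbed nutrients and lymphatic vessels (lacteals) carry absorbed fat. Organoid cultures are seeded from epithelial crypts, and endothelium is not one of their cell lineages.

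In genome build GRCm38 the junction gene Pecam1 lies at chr11:106654217-106750628 on the minus strand and Cdh5 at chr8:104101625-104144502 on the plus strand. Of the receptor genes, Kdr lies at chr5:75932827-75978458 and Flt1 at chr5:147561604-147726011, both on the minus strand, and Tek at chr4:94739289-94874976 on the plus strand. Emcn lies at chr3:137341067-137432185 and Vwf at chr6:125546774-125686679, both on the plus strand, and Plvap at chr8:71497754-71511769 on the minus strand. The lymphatic genes Lyve1 and Prox1 lie on the minus strand at chr7:110850607-110862953 and chr1:190118035-190170714. All 10 are protein coding, and each value sums the reads over all exons of the gene. Genes on the opposite strand overlap Cdh5 (Gm29682), Plvap (the protein-coding Gtpbp3) and Prox1 (Gm28172 and Prox1os). Since counting by strand is not stated, reads of these pairs cannot be told apart.

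Promoters from RefSeq, each from 250 bases before to 50 after the start of the gene, were matched for 5 of the 10 genes (Emcn, Flt1, Kdr, Tek and, with 2 starts, Prox1). RefSeq starts can differ from the gene limits above, and the Prox1 window shown belongs to a start that lies outside the limits given for Prox1, so all of it lies upstream of them. Those of 3 receptor genes, whose transcripts rose in DMBA+TAM, and of Prox1, whose transcripts did not, are shown 5′ to 3′ on the strand of the gene. Capitals mark GGAA on either strand (printed as TTCC where it lies on the other), the core of sites for ETS factors, a family that includes regulators of endothelial genes. The windows in GRCm38.p6 are chr5:75978406-75978705 (minus strand) for Kdr, chr5:147725962-147726261 (minus) for Flt1, chr4:94739039-94739338 (plus) for Tek and chr1:190170778-190171077 (minus) for Prox1.
Kdr: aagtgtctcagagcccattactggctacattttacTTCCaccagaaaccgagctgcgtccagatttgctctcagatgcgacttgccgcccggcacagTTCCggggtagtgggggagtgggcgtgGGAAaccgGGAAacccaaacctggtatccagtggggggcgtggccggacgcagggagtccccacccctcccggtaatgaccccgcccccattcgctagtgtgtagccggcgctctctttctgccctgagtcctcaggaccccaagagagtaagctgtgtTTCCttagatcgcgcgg
Flt1: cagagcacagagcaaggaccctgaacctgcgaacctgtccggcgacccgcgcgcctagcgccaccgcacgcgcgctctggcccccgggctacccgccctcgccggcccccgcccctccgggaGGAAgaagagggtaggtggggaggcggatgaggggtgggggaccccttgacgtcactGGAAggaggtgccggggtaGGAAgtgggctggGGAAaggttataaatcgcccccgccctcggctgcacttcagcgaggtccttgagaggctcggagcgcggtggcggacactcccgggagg
Tek: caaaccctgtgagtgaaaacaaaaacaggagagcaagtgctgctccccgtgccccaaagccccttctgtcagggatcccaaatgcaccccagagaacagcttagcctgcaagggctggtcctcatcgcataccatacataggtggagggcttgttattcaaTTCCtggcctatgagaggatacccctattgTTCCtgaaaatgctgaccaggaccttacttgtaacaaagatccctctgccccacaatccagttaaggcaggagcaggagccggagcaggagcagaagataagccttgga
Prox1: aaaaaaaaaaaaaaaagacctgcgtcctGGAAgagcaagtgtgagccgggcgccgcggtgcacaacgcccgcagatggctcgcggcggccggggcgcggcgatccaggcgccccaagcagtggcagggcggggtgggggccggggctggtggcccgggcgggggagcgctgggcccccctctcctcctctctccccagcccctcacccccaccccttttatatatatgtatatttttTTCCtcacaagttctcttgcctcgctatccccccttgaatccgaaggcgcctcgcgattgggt

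All 6 matched promoters held GGAA in at least 2 places, as did 84.6% of 32851 promoters of this length, so this core does not set them apart. The longer CCGGAA, which contains GGAA, was found in Kdr (14.9% of all promoters), and AGGAAG, which contains it too, in Emcn and Flt1 (35.4%). The GATA-type site AGATAA was found in Tek (11.2%), and TATAAA in Flt1 and in the Prox1 promoter shown (13.6%). All motifs were searched on both strands, and a match is a description of the letters only.

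Library totals were 8828247 to 10923673 counts in the 8 libraries of the other groups and 1592366 and 1915270 in DMBA+TAM, so low genes are measured least precisely there. Summed counts of the 10 genes were 940 to 2195 per library. Levels are normalized FPKM, the deposited FPKM (reads scaled by gene length and library total) rescaled with TMM factors (trimmed mean of M-values, a scaling that assumes most genes do not change), which can be compared between genes; normalized CPM (counts scaled by the library total and TMM) is used within a gene or list. The level at Ppp2r1a, which checks the deletion only in part because exons outside the floxed segment are still counted, was 139 and 147 in control, 148 and 167 in TAM short, 190 and 173 in DMBA, 191 and 179 in TAM long and 147 and 151 in DMBA+TAM. The difference of DMBA+TAM from control was 0.06 on the log2 scale (SE 0.11, adjusted p = 0.687, quasi-likelihood test of edgeR, Benjamini-Hochberg adjustment). Against control, Ppp2r1a passed as higher by 0.37 in TAM long and 0.34 in DMBA (adjusted p = 0.0213 and 0.0291). It passed as lower in DMBA+TAM against TAM long (-0.31, adjusted p = 0.0403) and in the interaction of DMBA and TAM long (-0.66, adjusted p = 0.0072, edgeR). The label of intestinal organoid was checked against 8 epithelial genes (Epcam, Vil1, cadherin and keratin genes), whose summed level was 13000 to 22300 normalized CPM in the other groups but 22.0 to 32.7 in DMBA+TAM. In those libraries Epcam had 3 and 3 counts and Vil1 had 1 and 1, so the epithelial genes that define the labelled tissue were near absent. Whether the DMBA+TAM libraries hold the material that the label names was not tested, and this bears on every DMBA+TAM value below. The other groups held transcripts of non-epithelial cells as well. The smooth muscle gene Myh11 was at a mean of 962 normalized CPM in control, 661 in TAM short, 3340 in DMBA and 3270 in TAM long. Which cells these libraries hold was not tested either, and this bears on their endothelial values.

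Endothelial transcripts were detected in every library and were highest in DMBA+TAM. Summed over the 10 genes, the level was 49.8 and 51.7 normalized FPKM in control, 47.2 and 43.1 in TAM short, 72.9 and 63.4 in DMBA, 66.6 and 76.0 in TAM long and 353 and 344 in DMBA+TAM. Neither DMBA+TAM library overlapped any other, and the libraries of DMBA and TAM long lay above those of control and TAM short. Against each of the other 4 groups, 9 of the 10 genes rose in DMBA+TAM (quasi-likelihood test of edgeR, Benjamini-Hochberg adjustment over 16179 genes, threshold 0.05), where the share of all genes called higher was 29.0% (control), 25.2% (DMBA), 25.3% (TAM long) and 29.3% (TAM short). The values of all 10 genes did not overlap between DMBA+TAM and any other group, as was so for 82.5%, 75.9%, 78.7% and 82.4% of all genes. The exception was Prox1. In log2 fold change the 10 genes had a median of 2.78, 2.60, 2.33 and 3.03 in that order, beside -0.17, -0.14, -0.14 and -0.14 over all genes tested. The 4 comparisons share the DMBA+TAM libraries. In these bulk libraries, more endothelial cells and more RNA per endothelial cell cannot be told apart, and neither can fewer cells of a type and less RNA per cell.

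**Figure D1:**
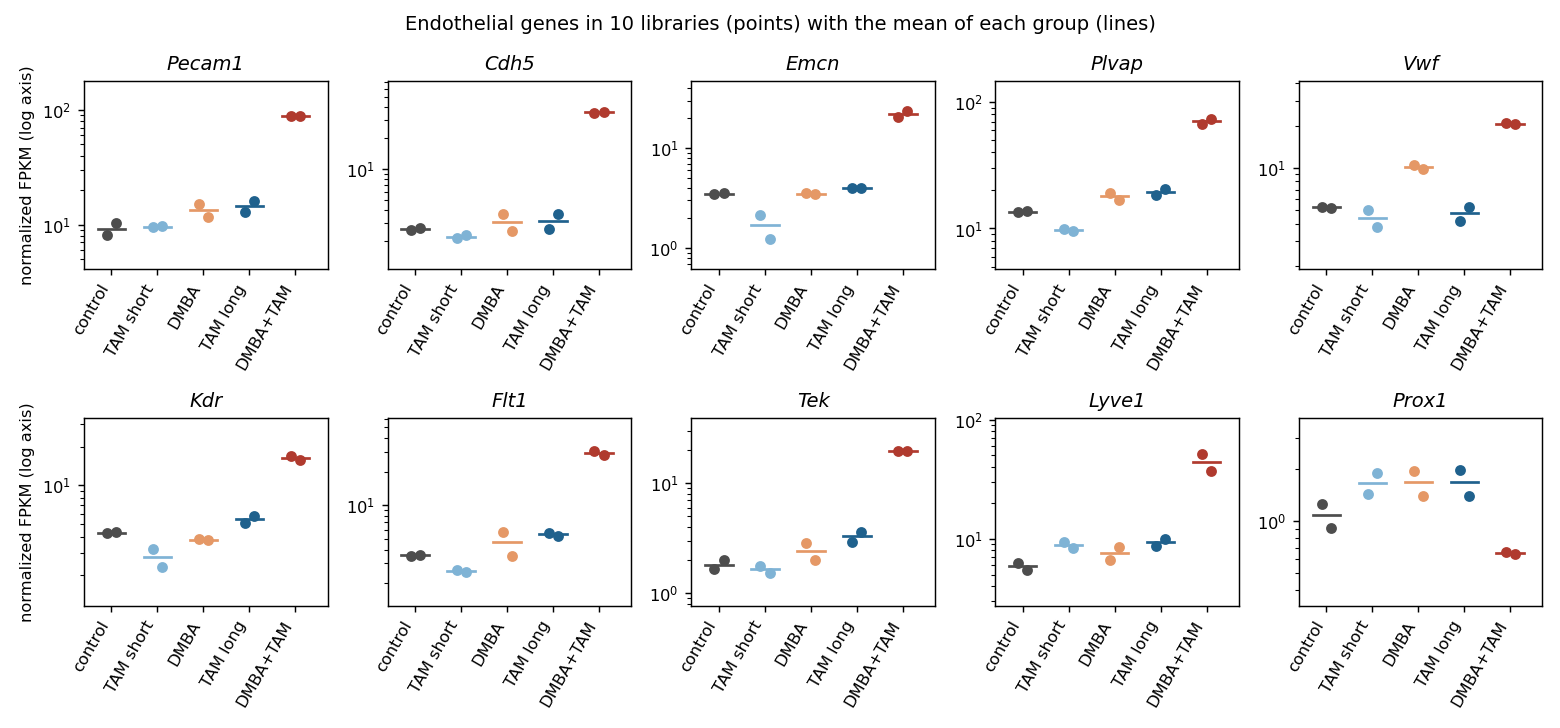
Normalized FPKM (log axis) of the 10 endothelial genes in each of the 10 libraries (points), with the mean of each group of 2 (line). For all genes except Prox1 both DMBA+TAM points sit above all 8 others, as for Pecam1 with 88.4 and 89.1 against 8.18 to 16.2, while for Prox1 they sit lowest.

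Among junction genes, Pecam1, which encodes the adhesion molecule CD31 of endothelium, platelets and leukocytes, was at 8.18 and 10.3 normalized FPKM in control, 9.50 and 9.75 in TAM short, 15.0 and 11.7 in DMBA, 12.9 and 16.2 in TAM long and 88.4 and 89.1 in DMBA+TAM. The DMBA+TAM libraries stood far above the rest, and the DMBA and TAM long libraries lay above those of control. Pecam1 was 9.61-fold higher in DMBA+TAM than in control (log2 fold change 3.27, SE 0.18, adjusted p = 1.82e-07, edgeR). Cdh5, which encodes VE-cadherin, the adherens junction protein of endothelium, was at 2.58 and 2.72 in control, 2.15 and 2.31 in TAM short, 3.70 and 2.51 in DMBA, 2.66 and 3.67 in TAM long and 35.6 and 36.0 in DMBA+TAM. It had the largest difference of the 10 genes from control, 13.5-fold (log2 3.76, SE 0.21, adjusted p = 2.68e-07, edgeR), while DMBA and TAM long overlapped control and did not pass the test (log2 0.24 and 0.25, adjusted p = 0.386 and 0.349, edgeR).

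Among receptor genes, Kdr, which encodes VEGF receptor 2, the main signalling receptor for VEGF-A, was at 4.24 and 4.35 normalized FPKM in control, 3.20 and 2.31 in TAM short, 3.82 and 3.75 in DMBA, 5.07 and 5.82 in TAM long and 16.8 and 15.8 in DMBA+TAM. It had the smallest rise over control of the 9 genes, 3.79-fold (log2 1.92, SE 0.17, adjusted p = 5.51e-06, edgeR). Flt1, which encodes VEGF receptor 1, whose soluble form binds VEGF-A as a decoy, was at 3.52 and 3.55 in control, 2.61 and 2.49 in TAM short, 5.80 and 3.49 in DMBA, 5.63 and 5.33 in TAM long and 30.6 and 28.2 in DMBA+TAM. In DMBA, 1 library lay above both control libraries and the other below them, whereas DMBA+TAM was 8.29-fold above control (log2 3.05, SE 0.22, adjusted p = 1.33e-06, edgeR). Tek, which encodes the angiopoietin receptor TIE2, was at 1.65 and 2.00 in control, 1.78 and 1.54 in TAM short, 2.86 and 2.03 in DMBA, 2.96 and 3.63 in TAM long and 19.7 and 19.6 in DMBA+TAM. The DMBA+TAM libraries did not overlap the others and were 10.8-fold above control (log2 3.43, SE 0.22, adjusted p = 5.76e-07, edgeR).

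Among genes of the vessel wall surface, Emcn, which encodes endomucin, a sialomucin of capillaries and veins, was at 3.48 and 3.53 normalized FPKM in control, 2.15 and 1.23 in TAM short, 3.53 and 3.46 in DMBA, 4.0 and 3.98 in TAM long and 20.6 and 23.5 in DMBA+TAM. The TAM short libraries were the lowest and the DMBA+TAM libraries the highest, 6.29-fold above control (log2 2.65, SE 0.23, adjusted p = 4.96e-06, edgeR). Plvap, which encodes the protein of the diaphragms of fenestrated capillaries, was at 13.4 and 13.7 in control, 9.98 and 9.52 in TAM short, 19.2 and 16.8 in DMBA, 18.5 and 20.7 in TAM long and 67.6 and 73.5 in DMBA+TAM. It was the most abundant of the 10 genes in control and rose 5.22-fold (log2 2.38, SE 0.13, adjusted p = 1.73e-07, edgeR). Vwf, which encodes von Willebrand factor, a clotting protein made by endothelium and megakaryocytes, was at 5.26 and 5.20 in control, 5.01 and 3.79 in TAM short, 10.5 and 9.87 in DMBA, 4.21 and 5.28 in TAM long and 20.8 and 20.5 in DMBA+TAM. DMBA was the only single treatment in which Vwf passed the test, and DMBA+TAM was 3.94-fold above control (log2 1.98, SE 0.18, adjusted p = 6.43e-06, edgeR) but only 1.02 on the log2 scale above DMBA (SE 0.17, adjusted p = 0.000682, edgeR).

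The lymphatic markers went in opposite directions in DMBA+TAM, though the Prox1 difference from control did not pass the test. In the single treatments both lay above control. Lyve1, which encodes a hyaluronan receptor of lymphatic endothelium that some tissue macrophages carry too, was at 6.29 and 5.45 normalized FPKM in control, 9.45 and 8.28 in TAM short, 6.65 and 8.44 in DMBA, 8.70 and 10 in TAM long and 51.8 and 36.8 in DMBA+TAM. All 8 treated libraries lay above control, DMBA+TAM by 7.52-fold (log2 2.91, SE 0.20, adjusted p = 1.05e-06, edgeR). Prox1, which encodes the transcription factor that sets lymphatic identity and is also found in enteroendocrine cells of the gut epithelium, was at 1.25 and 0.907 in control, 1.42 and 1.90 in TAM short, 1.94 and 1.39 in DMBA, 1.97 and 1.40 in TAM long and 0.662 and 0.645 in DMBA+TAM, the last from 6 and 7 counts. The DMBA+TAM libraries were the lowest, without overlap, yet the difference from control did not pass the test (log2 -0.73, 95% interval -1.67 to 0.22, adjusted p = 0.157, edgeR).

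Prox1 passed as lower in DMBA+TAM against the other 3 groups, by -1.35 against DMBA (SE 0.40, adjusted p = 0.0170), -1.36 against TAM long (SE 0.40, adjusted p = 0.0159) and -1.34 against TAM short (SE 0.41, adjusted p = 0.0157) on the log2 scale in edgeR's test, where 29.9%, 29.9% and 33.8% of all genes were called lower. These calls rest on few counts, and leaving out either DMBA+TAM library hardly moved the log2 fold changes. Without either DMBA+TAM library none of the 3 passed (log2 fold changes from -1.38 to -1.34), nor did the call against DMBA without DMBA replicate 1 (-1.08), that against TAM long without TAM long replicate 1 (-1.11) or that against TAM short without TAM short replicate 2 (-1.14). The call against TAM long was also lost with DESeq2 (-1.30), and that against TAM short with scaling by library size only (-0.93) and with limma on FPKM (-0.48 and -0.85 with pseudocounts of 1 and 0.1). The direction remained lower under all of these. Beside Prox1, 5 of 6 enteroendocrine genes could be tested, 4 of which fell in DMBA+TAM against control, beside 35.3% of all genes called lower, Chgb from 45.5 ± 0.0515 to 1.28 ± 1.18 and Chga from 58.5 ± 10.7 to 2.46 ± 0.993 normalized CPM (mean ± SD, n = 2). The other 4 genes of that list, Neurod1 among them, were at 0 counts in both DMBA+TAM libraries. With DESeq2, or without either DMBA+TAM library, 2 enteroendocrine genes passed. Their part in the Prox1 values was not tested.

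**Figure D2:**
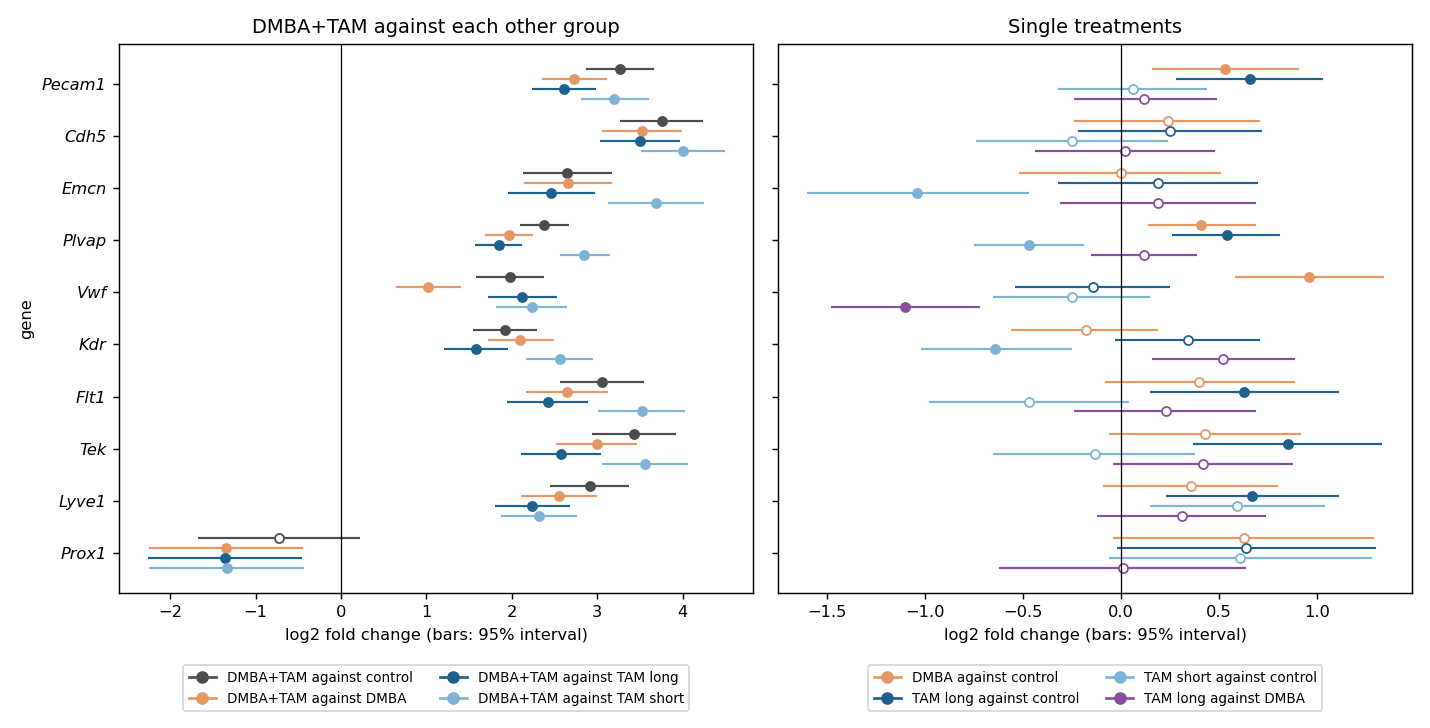
Log2 fold change of each endothelial gene with its 95% interval (bars) for DMBA+TAM against each other group (left) and among the single treatments and control (right); filled points passed the test at an adjusted p under 0.05, open points did not. On the left 9 genes lie to the right of 0 in all 4 comparisons, from 1.02 for Vwf to 4.0 for Cdh5, and Prox1 lies to the left; on the right most points are open.

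The order of the groups was much alike for the 9 genes that rose: TAM short or control was lowest, and DMBA+TAM was highest. TAM short was the lowest group by its mean for Cdh5, Kdr, Flt1, Tek, Emcn, Plvap and Vwf, though its libraries overlapped those of control for Tek, and for Cdh5, Flt1, Tek and Vwf the difference from control did not pass the test. Pecam1 and Lyve1 were lowest in control, with overlap between control and TAM short for Pecam1. For Vwf the TAM short, TAM long and control libraries lay close together, below DMBA. DMBA and TAM long overlapped for Pecam1, Cdh5, Flt1, Plvap and Prox1, so their order is not given for these genes.

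DMBA against control compares the carcinogen without tamoxifen with saline, but the library names differ too (NL and NS). An effect of DMBA cannot be told apart from what these names mark. The genes that rose were Vwf, 1.94-fold (log2 0.96, SE 0.17, adjusted p = 0.00138), Pecam1, 1.45-fold (0.53, SE 0.17, adjusted p = 0.0249) and Plvap, 1.33-fold (0.41, SE 0.12, adjusted p = 0.0192) by edgeR's test. This is 3 of 10 genes, close to the 24.5% of all genes called higher, and their median was 0.41 beside 0.07 over all genes. None of the other 7 passed, and their log2 fold changes ran from -0.18 for Kdr to 0.63 for Prox1. The count was 7 with scaling by library size only, which moved the median of all genes by 0.31, and Kdr and Emcn (main values -0.18 and 0.00) were then at 0.13 and 0.31. It was 4 with either limma fit, where Lyve1 passed (0.57 and 0.65), and 2 with no filter on low counts, where Plvap was lost (0.40). It was 1 when only the groups compared were fitted, 1 without control replicate 1 or without DMBA replicate 1, and 5 without DMBA replicate 2, with Vwf past the threshold each time a library was left out. Values of the groups did not overlap for 7 of the 10 genes, beside 74.5% of all genes.

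TAM long against control compares the tamoxifen set labelled Long with saline. The same limit holds, since the names differ here as well (DSS_L and NS). Here 5 of 10 genes rose: Tek 1.81-fold (log2 0.85, SE 0.21, adjusted p = 0.00927), Lyve1 1.59-fold (0.67, SE 0.20, adjusted p = 0.0189), Pecam1 1.58-fold (0.66, SE 0.17, adjusted p = 0.00969), Flt1 1.55-fold (0.63, SE 0.21, adjusted p = 0.0355) and Plvap 1.45-fold (0.54, SE 0.12, adjusted p = 0.00561) by edgeR's test, beside 23.2% of all genes called higher. The median over the 10 genes was 0.58, beside 0.05 over all genes. Neither TAM long library overlapped control for these 5 genes, or for 8 of the 10 in all, beside 78.1% of all genes. The number past the threshold was 0 without TAM long replicate 2, 1 without control replicate 1, 3 without control replicate 2 and 4 without TAM long replicate 1, with Plvap past it in 3 of these 4 settings, Pecam1 and Tek in 2, Lyve1 in 1 and Flt1 in 0. With DESeq2 the number was 4, with Flt1 lost at 0.63. With scaling by library size only the number was 7, with Kdr at 0.66 and Prox1 at 0.95 past the threshold, and with either limma fit it was 6, with Kdr past it at 0.54 and 0.64. Vwf, at log2 -0.14 (adjusted p = 0.530), was at 0.17 with scaling by library size only.

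In TAM short against control, 3 of 10 genes fell, beside 7.80% of all genes called lower: Emcn by 1.04 on the log2 scale (SE 0.25, adjusted p = 0.0237), Kdr by 0.64 (SE 0.17, adjusted p = 0.0360) and Plvap by 0.47 (SE 0.13, adjusted p = 0.0352) in edgeR's test. No gene passed as higher, where the share of all genes was 6.52%. Lyve1 was at 0.59 (SE 0.20, adjusted p = 0.0766), with both TAM short libraries above control, and passed as higher with scaling by library size only (0.68), with no filter on low counts (0.60) and when only these groups were fitted (0.65). Values of the groups did not overlap for 8 of the 10 genes, beside 63.2% of all genes. The median was -0.25, beside -0.04 over all genes. With scaling by library size only, Emcn kept its call, and Kdr (-0.55) and Plvap (-0.38) lost theirs. Plvap was also lost with DESeq2, with no filter on low counts and with the replicate number as a block (-0.47 in each). None of the 3 calls was made with limma on FPKM, or without control replicate 1, control replicate 2 or TAM short replicate 2, and 2 were made without TAM short replicate 1.

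TAM long and DMBA differed in 1 of the 10 genes. Vwf was lower in TAM long by -1.10 on the log2 scale, or 2.15-fold (SE 0.17, 95% interval -1.48 to -0.72, adjusted p = 0.0131, edgeR), beside 1.46% of all genes called lower. Both DMBA libraries (10.5 and 9.87 normalized FPKM) were above both TAM long libraries (4.21 and 5.28), and 5 of the 10 genes did not overlap between these groups, beside 48.6% of all genes. The call was lost with limma on log2(FPKM + 0.1) (-1.08), when only these groups were fitted (-1.11) and without TAM long replicate 1 (-0.94). Of the other 9 genes, Kdr had the highest value, 0.52 (95% interval 0.16 to 0.89, adjusted p = 0.120, edgeR).

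Whether DMBA+TAM differed from the sum of the DMBA and TAM long differences on the log2 scale was tested as an interaction. All 10 genes passed, 9 as higher and Prox1 as lower, beside 21.6% of all genes called higher, 26.5% called lower and 48.2% called in either direction. The interaction was largest for Cdh5 (3.27, SE 0.29, adjusted p = 1.22e-05), followed by Emcn (2.47, SE 0.32, adjusted p = 0.000164), and smallest among the genes above 0 for Vwf (1.17, SE 0.25, adjusted p = 0.00323, quasi-likelihood test of edgeR, Benjamini-Hochberg adjustment). Prox1 was at -1.99 (SE 0.50, adjusted p = 0.00845, edgeR), with the libraries of DMBA and TAM long above control for this gene and those of DMBA+TAM below it. All 10 remained past the threshold when any of the 8 libraries involved was left out. The names of the 4 groups differ by more than the treatments (NS, NL, DSS_L and Lgr5), and L stands in both single treatments but not in the combination, so the interaction cannot be told apart from what the names mark. Because these comparisons share control and treated libraries, the values of single comparisons are given side by side and no likeness between them is read.

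The make-up of the endothelial transcripts differed between groups as well as their level. Of the summed normalized FPKM of the 10 genes, Pecam1 took 16.4 to 19.9% in control and 25.1 to 25.9% in DMBA+TAM, and Cdh5 took 5.18 to 5.26% and 10.1 to 10.5%. Plvap went the other way, from 26.5 to 26.8% in control to 19.2 to 21.4% in DMBA+TAM, as did Kdr, from 8.42 to 8.51% to 4.60 to 4.76%. Vwf held 10.1 to 10.6% in control, 14.3 to 15.6% in DMBA, 6.32 to 6.94% in TAM long and 5.90 to 5.97% in DMBA+TAM, so that its share was highest in DMBA. Lyve1 held 19.2 to 20% in TAM short and 9.11 to 14.7% in all other libraries. Prox1 held 1.76 to 2.52% in control and 0.188% in both DMBA+TAM libraries. None of these ranges overlapped between the groups named, but shares of a sum are bound to each other. With 2 libraries against 2 the smallest exact two-sided permutation p is 0.333, and no other test of the shares was run, so they are descriptions.

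**Figure D3:**
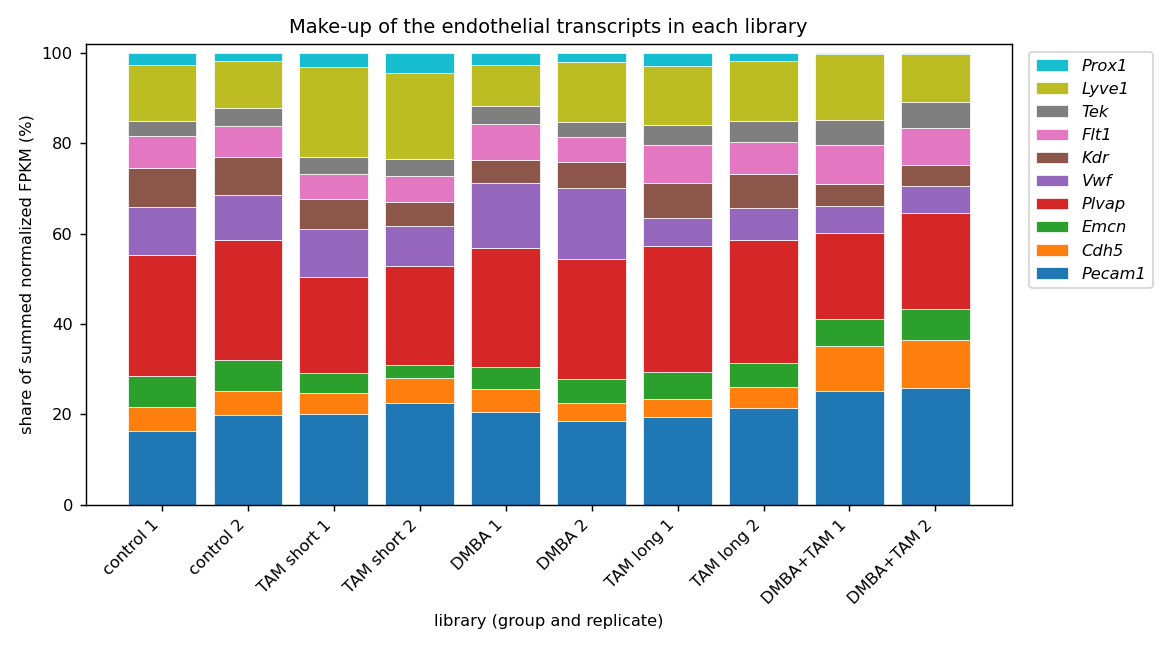
Share (%) of each of the 10 endothelial genes in their summed normalized FPKM, 1 bar per library. Plvap takes 26.5 to 26.8% of the control bars and Pecam1 25.1 to 25.9% of the DMBA+TAM bars, and Prox1 is almost out of sight in the latter at 0.188%.

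The order of genes within a library depends on the length used. The authors' FPKM rests on a length of their own that is shorter than the listed gene length for 7 of the 10 genes, such as 2663 against 8834 bases for Vwf. With the listed length, chosen after seeing the data, Plvap ranked first and Pecam1 second in DMBA+TAM, the reverse of the order above, and Vwf moved from rank 4 to 7 in control. Comparisons within a gene are not touched by this.

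Across the 10 libraries, the log2 levels of 9 genes followed the mean of the set closely, with Pearson r from 0.896 for Vwf to 0.994 for Flt1, and Prox1 was at -0.73. That mean includes each gene itself, which raises its r. The most alike pair was Pecam1 and Tek (r = 0.995) and the least alike Emcn and Prox1 (r = -0.821). The 5 genes outside the lists most like the mean of the set were Col8a1 and Thbs2 (r = 0.997), and Efemp2, Igfbp7 and P3h3 (r = 0.996), all over 10 libraries. These correlations are descriptions: the DMBA+TAM libraries lay apart from all others in the level of these genes, and differ from them in depth as well as treatment.

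Companion lists from general knowledge hold further genes used as markers of endothelium, some of them shared with other cells. Of 30 other blood endothelial genes, 27 rose in DMBA+TAM against control, 1 fell and 2 did not pass, beside 29.0% of all genes called higher and 35.3% called lower, with a median log2 fold change of 2.77 beside -0.17 over all genes. Cd93, a glycoprotein of endothelial and myeloid cells, went from 12.2 ± 1.45 to 296 ± 2.79 normalized CPM (mean ± SD, n = 2), and Cd34, a sialomucin of capillaries and progenitors, from 12.6 ± 0.428 to 269 ± 16.3. Efnb2, which encodes the arterial ligand ephrin-B2 that gut epithelial cells express too, fell from 71.6 ± 1.5 to 39.1 ± 2.95. These are log2 fold changes of 4.6, 4.42 and -0.88 (adjusted p = 2.28e-08, 1.18e-08 and 0.000243, edgeR). Against control, 1 of the 30 rose in TAM short, 9 in DMBA and 8 in TAM long, and none fell in these groups. As shares of the list these are 3.33%, 30% and 26.7%, beside 6.52%, 24.5% and 23.2% of all genes called higher.

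Of 10 other lymphatic genes, 7 rose in DMBA+TAM against control, 2 fell and 1 did not pass, with a median of 1.5, beside 29.0% of all genes called higher and 35.3% called lower. Those that rose most were Pdpn, which encodes podoplanin and is also expressed by fibroblasts, from 2.74 ± 0.0399 to 69.2 ± 11.9 normalized CPM, and Sox18, a transcription factor of both vessel types, from 1.72 ± 1.15 to 35.3 ± 0.770. The 2 that fell were Mmrn1, a multimerin of lymphatic endothelium and platelets, and Ccl21a, the chemokine that draws dendritic cells to lymphatics. Mmrn1 had 141 and 166 counts in control and 2 and 2 in the less deep DMBA+TAM libraries. Ccl21a had 80 and 114 counts in control and 0 and 3 in DMBA+TAM. With scaling for depth, the log2 fold changes were -4.2 and -3.93 (adjusted p = 8.65e-05 and 0.000997, edgeR). Ccl21a has near-identical copies, so its counts are uncertain. Flt4, which encodes VEGF receptor 3 of lymphatics, rose by 0.85 on the log2 scale (adjusted p = 0.0275, edgeR) and is named here after its values were seen. Prox1, Mmrn1 and Ccl21a were each at or under 7 counts per library in DMBA+TAM while Lyve1, Pdpn and Sox18 were high.

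Of 10 genes for VEGF and angiopoietin ligands and co-receptors, 9 rose in DMBA+TAM against control and 1 did not pass, with a median of 3.57, beside 29.0% of all genes called higher. Angpt1, the activating ligand of TIE2, went from 1.40 ± 0.103 to 57.9 ± 0.248 normalized CPM (log2 5.36, adjusted p = 1e-05, edgeR), and Vegfd, a lymphatic growth factor that binds VEGF receptor 3, from 1.80 ± 0.167 to 25.8 ± 9.62 (log2 3.83, adjusted p = 7.4e-05, edgeR). All 4 adhesion molecules of activated endothelium rose, beside the same 29.0% of all genes: Vcam1 from 4.17 ± 1.26 to 69.6 ± 0.637 and Icam1 from 4.31 ± 0.468 to 53.7 ± 6.17 normalized CPM. Against control, 2 of the 4 also passed as higher in each of DMBA, TAM long and TAM short. The shares of all genes called higher there were 24.5%, 23.2% and 6.52%. Mural cells, which wrap vessels, were mixed: of 10 genes 5 rose, 1 fell and 4 did not pass (29.0% and 35.3% of all genes were called higher and lower). The pericyte genes Cspg4 (log2 3.91) and Pdgfrb (3.72) were among those that rose. In contrast, Kcnj8 was at 8.33 ± 0.370 in control and 7.53 ± 1.30 normalized CPM in DMBA+TAM, and Abcc9 at 40.8 ± 3.04 and 26.8 ± 5.76. The smooth muscle myosin gene Myh11 fell from 962 ± 151 to 46.0 ± 1.61 normalized CPM (log2 -4.39, adjusted p = 8.92e-06, edgeR). Against DMBA 4 rose and 5 fell (median -0.79, beside 25.2% and 29.9% of all genes). Against TAM long 4 rose and 6 fell (-0.96, beside 25.3% and 29.9%), and against TAM short 7 rose and 1 fell (1.43, beside 29.3% and 33.8%). The summed mural level was 1660 to 1980 normalized CPM in control, 976 to 1790 in TAM short, 4900 to 8700 in DMBA, 6210 to 8770 in TAM long and 1840 to 2160 in DMBA+TAM, so it was above control in DMBA and TAM long, where Pecam1 and Plvap rose a little, and near the control range in DMBA+TAM, where they rose most. Myh11 made up much of this sum, at 962 in control and 3340 in DMBA, so the sum in DMBA+TAM joins its fall with higher means of other genes. Acta2 went from 267 ± 19.4 to 653 ± 113 and Mcam from 26.0 ± 4.37 to 233 ± 14.4 normalized CPM. Pdgfrb went from 14.7 ± 0.579 to 195 ± 2.70 and Cspg4 from 9.80 ± 0.0575 to 148 ± 16.1. Rgs5 went from 250 ± 18.7 to 367 ± 16.7 and Notch3 from 5.01 ± 0.271 to 61.8 ± 9.78. Des was uneven, with 57 and 1122 counts in the DMBA+TAM libraries. The part of mural genes in these values was not tested.

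**Figure D4:**
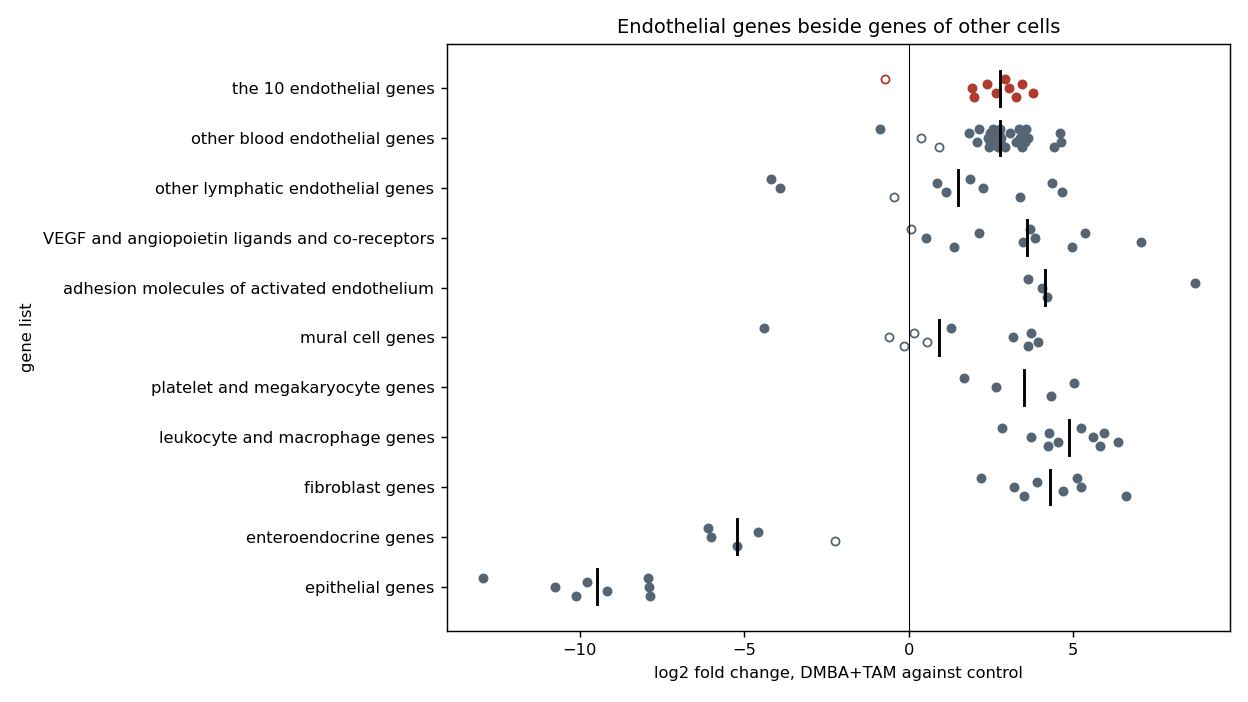
Log2 fold change of each gene in DMBA+TAM against control, by gene list (rows), with the median of each list (vertical bar); filled points passed the test, open points did not. The rows of the 10 genes and of the other blood endothelial genes lie mostly between 1 and 5 with medians of 2.78 and 2.77. The other lymphatic genes run from -4.2 to 4.65 with a median of 1.5. The leukocyte and fibroblast rows lie further to the right with medians of 4.88 and 4.29. Fitted values of genes with 0 to 3 counts in a group depend on the small count the fit adds.

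In DMBA+TAM, leukocyte, fibroblast and platelet genes rose along with the endothelial genes, while epithelial genes fell. In TAM short the leukocyte sum lay above control, whereas the sum of the 10 endothelial genes lay below it (119 to 129 against 136 to 140 normalized CPM). All 10 leukocyte and macrophage genes rose in DMBA+TAM against control (29.0% of all genes were called higher and 35.3% lower, also for the lists that follow), with a median of 4.88 and a summed level of 140 to 208 normalized CPM in control, 216 to 307 in DMBA, 315 to 338 in TAM short, 223 to 245 in TAM long and 5470 to 5790 in DMBA+TAM. Among them Cd163 went from 4.08 ± 0.148 to 338 ± 12.1 and Mrc1 from 14.1 ± 0.195 to 869 ± 170, both of tissue macrophages. All 8 fibroblast genes rose, with a median of 4.29 and a summed level of 1120 to 1300 normalized CPM in control, 1920 to 2160 in DMBA, 666 to 797 in TAM short, 1320 to 1660 in TAM long and 31800 to 32700 in DMBA+TAM, Thy1 by 6.61 and Col1a1 by 5.24 on the log2 scale. Of 5 platelet genes, 4 could be tested and rose, with a summed level of 3.51 to 4.7 in control and 58.2 to 69.7 in DMBA+TAM. Most of the DMBA+TAM sum came from Pf4 (53.2 ± 6.10), which macrophages can also make. Fewer of the 4 passed when any single library of these groups was left out. Pecam1, Vwf and Lyve1, and companion genes such as Cd93, Pdpn and Mmrn1, are shared with these cells, whose part in the endothelial values was not tested. No gene of the leukocyte, fibroblast or platelet lists was at 0 counts in both libraries of any group. All 8 epithelial genes fell, with no gene of the list at 0 in both DMBA+TAM libraries.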

How the data were processed

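The authors mapped reads with TopHat to the mouse genome, counted reads per gene with HTSeq and computed FPKM from a length of their own; the deposited table gives both, as raw counts and FPKM, for the 10 libraries on GRCm38. Its columns of fold changes and adjusted p-values from comparisons by the authors were not used here. Of 47074 lines, 5 hold no counts. The test was the quasi-likelihood test of edgeR 4.0.16 (R 4.3.3), with filterByExpr, TMM factors of 0.832 to 1.192, 1 mean per group, and p-values adjusted by Benjamini-Hochberg over 16179 genes with a threshold of 0.05. Fold changes are edgeR's. Alternatives were DESeq2 1.42.0, limma 3.58.1 on log2(FPKM + 1) or log2(FPKM + 0.1), other scaling, filter and samples, a block, and leaving out each library. The members and lists were chosen with earlier results of these data known. Named genes are the members, Ppp2r1a, the 2 largest rises and falls of each list (mean of at least 20 counts, DMBA+TAM against control) and the 5 genes most like the set. A few more genes of the lists, such as Flt4 and further mural genes, are named after their values were seen. In all, 112 of 112 symbols were matched, 3 by gene ID. Figures were drawn with matplotlib 3.10.9.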

Additional observations from a re-analysis of the deposited data

Results flagged for a closer look

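For all 10 endothelial genes the difference of the DMBA+TAM libraries from DMBA was not equal to that of the TAM long libraries from control, by the interaction term of edgeR's fit. The library names (NS, NL, DSS_L and Lgr5) differ along with the treatments, so this cannot be told apart from whatever the names mark and is not given as an effect of tamoxifen. On the log2 scale it was 2.07 for Pecam1 and 3.27 for Cdh5 among junction genes, 1.76 for Kdr, 2.02 for Flt1 and 2.14 for Tek among receptors, 2.47 for Emcn, 1.43 for Plvap and 1.17 for Vwf among the other vessel genes, and 1.88 for Lyve1 and -1.99 for Prox1 among lymphatic genes. For 9 genes the combination was above the sum of the single differences and for Prox1 it was below it. The adjusted p-values ran from 1.22e-05 for Cdh5 to 0.00845 for Prox1 (edgeR), and 48.2% of all genes passed this test.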

How the results depend on the processing

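The numbers of endothelial genes past the threshold in DMBA+TAM against control, DMBA, TAM long and TAM short (9, 10, 10 and 10) and in the interaction (10) were within 9 to 10 under every alternative run, and the 9 genes that rose kept direction and call. The single treatments were less firm. In DMBA against control the count of 3 was 7 with scaling by library size only, 4 with either limma fit (Lyve1 gained), 2 with no filter on low counts (Plvap lost), 1 when only the groups compared were fitted and 1 to 5 without a library; in TAM long against control the count of 5 was 7 with scaling by library size only, 6 with either limma fit, 4 with DESeq2 and 0 to 4 without a library; in TAM short against control the count of 3 was 2 with scaling by library size only (Kdr and Plvap lost, Lyve1 gained as higher), 2 with DESeq2 (Plvap lost), 4 when only the groups compared were fitted (Lyve1 gained), 0 with either limma fit and 0 to 2 without a library; and in TAM long against DMBA the count of 1 was 0 with limma on log2(FPKM + 0.1), 0 when only the groups compared were fitted and 0 to 1 without a library. Fits of fewer libraries have fewer residual degrees of freedom, and a group of 1 library is assumed to vary like the others; otherwise the cause was not tested. Scaling by library size only moved the median of all genes by 0.49, 0.18, 0.18, 0.41, 0.31, 0.32, 0.09 and 0.01 (DMBA+TAM against control, DMBA, TAM long and TAM short, then DMBA, TAM long and TAM short against control and TAM long against DMBA). Signs that turned were of genes not past the threshold. With scaling by library size only, limma on log2(FPKM + 1) and limma on log2(FPKM + 0.1), Kdr was at 0.13, 0.10 and 0.12 and Emcn at 0.31, 0.23 and 0.29 in DMBA against control, and Vwf at 0.17, 0.14 and 0.16 in TAM long against control. Without a library, log2 fold changes ran in DMBA against control from -0.10 to 0.47 (Cdh5), -0.04 to 0.71 (Flt1) and -0.04 to 0.00 (Emcn); in TAM long against control from 0.00 to 0.46 (Cdh5) and -0.32 to 0.01 (Vwf); in TAM short against control from -0.09 to 0.23 (Pecam1) and -0.26 to 0.01 (Tek); and in TAM long against DMBA from -0.05 to 0.31 (Pecam1), -0.23 to 0.33 (Cdh5), -0.08 to 0.65 (Flt1) and -0.25 to 0.28 (Prox1). Of 1020 values of single genes under alternatives, 924 kept direction and side of the threshold, 58 lost it, 15 gained it and 23 turned sign. The replicate number as a block left the counts of endothelial genes at 9, 10, 10 and 10 for DMBA+TAM, 3 for DMBA, 5 for TAM long and 2 in place of 3 for TAM short against control, where Plvap was lost at -0.47, and 1 for TAM long against DMBA. The numbers gave little sign of pairing: same-numbered libraries deviated together with r from -0.0414 to 0.26, over 0.1 in 1 of 10 pairs of groups. That pair was DMBA and TAM long, and whether these share a factor was not tested. Depth limits Prox1 most, since 3 counts are worth 1.58 and 1.32 normalized CPM in the DMBA+TAM libraries and 0.259 to 0.379 in the others.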
